A study of Xenopus tropicalis x Xenopus laevis and Xenopus tropicalis with 6 samples.

Results

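Fibroblast growth factor (FGF) ligands and the intracellular inhibitors that FGF signalling switches on were followed, copy by copy, in hybrid embryos of 2 frog species. The 10 genes were the ligands *fgf2*, *fgf3*, *fgf4*, *fgf8*, *fgf9*, *fgf16* and *fgf20* and the feedback inhibitors *spry1*, *spry2* and *dusp6*. They were found by gene symbol, with copy endings removed, and gave 28 of the 45244 features in the deposited table: 10 *X. tropicalis* features, 10 *X. laevis* L features and 8 *X. laevis* S features. *X. laevis* is allotetraploid, and L and S name the long and short chromosome of each pair of homeologues. Hybrids (replicates 40, 41 and 42) came from *X. tropicalis* eggs fertilized by *X. laevis* sperm, and the comparison embryos (replicates 37, 38 and 39) were *X. tropicalis*. Whole embryos were taken 7 hours after fertilization, with 3 polyA RNA libraries per group. Hybrids hold the *X. tropicalis* genome from the egg alone, while *X. tropicalis* embryos hold it from both parents, so gene dose and any change in expression of a copy cannot be told apart.

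FGF ligands are secreted proteins that bind receptor tyrosine kinases on the cell surface and activate the Ras and ERK kinase cascade. In *Xenopus* gastrulae this signalling is needed to form and maintain mesoderm, where it sustains the T-box gene *t* (brachyury). Sprouty proteins, encoded by *spry1* and *spry2*, dampen receptor signalling to ERK, and Dusp6 is a phosphatase that removes the activating phosphates from ERK. Transcription of these inhibitors is widely used as a readout of FGF signalling.

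The libraries held 71435751 to 88526278 counts in hybrids and 90144765 to 100025277 in *X. tropicalis*. *X. laevis* features took 15.4% to 17.6% of counts in hybrids and 5.33% to 5.92% in *X. tropicalis* libraries, which lack that genome and so give the background of each *X. laevis* feature. How many *X. laevis* reads fell on *X. tropicalis* features was not measured. Of 20 genes of the early embryo, such as *gsc*, *chrd* and *mixer*, 16 exceeded 1 CPM (count per 1000000 counts) in all 6 libraries on *X. tropicalis* features. The summed level of the 20 was 2956 to 3771 CPM in hybrids, against 5220 to 5312 CPM in *X. tropicalis*. Of 7 genes of differentiated tissues found, 4 stayed under 1 CPM in all libraries, with sums of 1.04 to 5.09 CPM in hybrids, against 0.558 to 2.17 CPM in *X. tropicalis*. In whole-embryo RNA, fewer cells that express a gene and less RNA per cell cannot be told apart.

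Among the *X. tropicalis* features, the phosphatase gene *dusp6* was the member that passed the test. It fell to 21.5, 20.4 and 50.5 CPM in hybrids, against 84.5, 86.5 and 98.0 CPM in *X. tropicalis* embryos, where CPM of an *X. tropicalis* feature is scaled to all *X. tropicalis* counts of the library after TMM. Hybrid replicate 42 stood above the other hybrids, and all hybrids lay below all *X. tropicalis* libraries. The log2 fold change was -1.54 ± 0.32 SE (edgeR quasi-likelihood test, Benjamini-Hochberg adjusted p = 0.0228). Of all 14079 *X. tropicalis* features tested, 2.99% were called lower and 0.76% higher at an adjusted p under 0.05, 3.75% in all. Groups did not overlap for 13.3% with hybrids lower and 11.1% with hybrids higher. The call was lost without hybrid replicate 41 (adjusted p = 0.0898) and without *X. tropicalis* replicate 37 or 39 (adjusted p = 0.0534 and 0.0929), with log2 fold changes of -2.09 to -1.32 over the 6 fits that leave out a library. The summed early embryo genes also stood lower in hybrids, as given above, and their part in this fall was not tested.

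Both Sprouty genes stood lower on *X. tropicalis* features in every hybrid library without passing the adjusted test. *spry1* had 116, 105 and 95.2 CPM in hybrids, against 136, 132 and 139.8 CPM in *X. tropicalis* embryos (log2 fold change -0.37 ± 0.13 SE, edgeR adjusted p = 0.164). *spry2* had 174, 169.5 and 151 CPM in hybrids, against 193, 208 and 254 CPM in *X. tropicalis* embryos (log2 fold change -0.41 ± 0.14 SE, edgeR adjusted p = 0.151). The groups did not overlap for either gene, and replicate 42 was the lowest hybrid for both, while for *dusp6* it was the highest.

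Of the 7 ligand genes, 0 passed the edgeR test on *X. tropicalis* features, DESeq2 also called 0, and 1 had p under 0.05 before adjustment. It was *fgf8*, a ligand of the gastrula mesoderm, with 13.8, 17.6 and 15.3 CPM in hybrids, against 22.2, 23.9 and 23.7 CPM in *X. tropicalis* embryos (log2 fold change -0.58 ± 0.23 SE, adjusted p = 0.218). Its groups did not overlap. The others overlapped between groups. *fgf2*, whose protein induces mesoderm in *Xenopus* explants, had 11.5, 6.34 and 11.998 CPM in hybrids, against 7.93, 6.37 and 4.48 CPM in *X. tropicalis*.

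*fgf9* and *fgf20*, with *fgf16* members of one ligand subfamily, also had means above those of *X. tropicalis* embryos with groups that overlapped. *fgf9* had 6.14, 8.78 and 10.5 CPM in hybrids, against 4.13, 8.11 and 3.53 CPM in *X. tropicalis*. *fgf20* had 9.13, 10.8 and 15.3 CPM in hybrids, against 13.1, 9.01 and 6.497 CPM in *X. tropicalis*. For *fgf2*, *fgf3*, *fgf9* and *fgf20*, log2 fold changes lay between 0.30 and 0.69, with standard errors of 0.37 to 0.73.

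The remaining ligands were scarce on their *X. tropicalis* features. *fgf3* had 3.74, 1.63 and 3.24 CPM in hybrids, against 2.44, 1.41 and 2.96 CPM in *X. tropicalis*. *fgf16* had 2.56, 0.0263 and 1.29 CPM in hybrids, against 2.02, 0.664 and 1.12 CPM in *X. tropicalis*, so that hybrid replicate 41 held hardly any reads of it. *fgf4*, the ligand known as eFGF in *Xenopus*, was detected in 2 of 3 hybrid libraries, with 40, 0 and 34 counts, and in 1 of 3 *X. tropicalis* libraries, with 0, 0 and 30 counts. A difference in *fgf4* was not detectable at this depth.

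Across the 10 *X. tropicalis* features, all of which passed the low-count filter, 1 was called lower and 0 higher, and DESeq2 gave the same counts. The background shares of 2.99% and 0.76% are those given above. With no adjustment of p, 4 members passed 0.05 as lower and 0 as higher, against 1443 and 1067 of all 14079 features tested. These 4, *dusp6*, *spry1*, *spry2* and *fgf8*, were also the members whose groups did not overlap, with hybrids lower, against 13.3% of all features tested. The median log2 fold change of the 10 was 0.16, against -0.005 over all features; it was -0.41 for the 3 inhibitors and 0.34 for the 7 ligands.

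**Figure D1:**
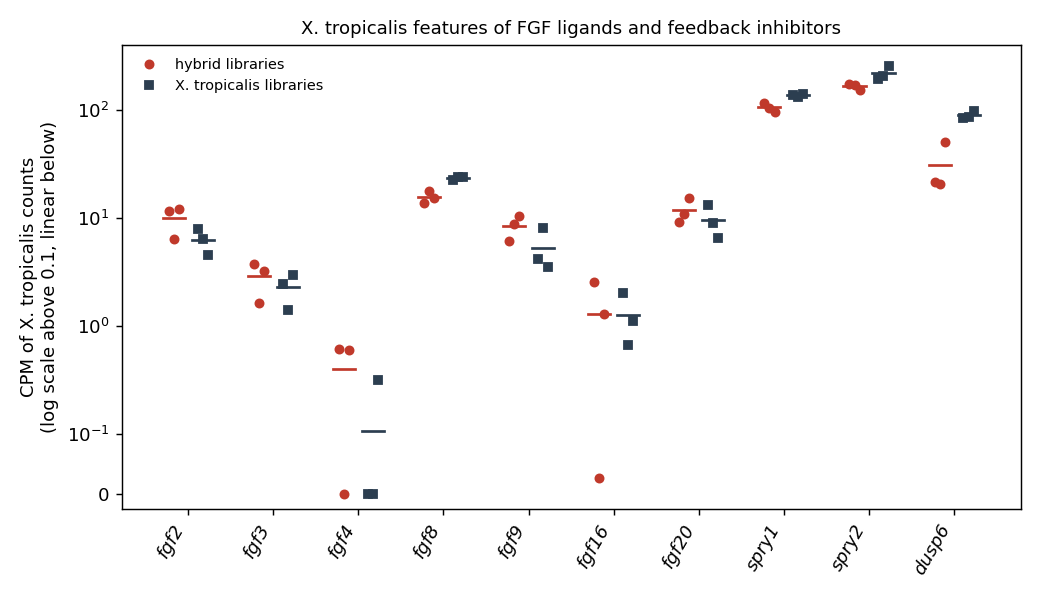
Levels of the 10 *X. tropicalis* features in each library, in CPM of *X. tropicalis* counts (log scale above 0.1, linear below). Red circles are hybrid libraries, dark squares *X. tropicalis* libraries, and short lines group means; *dusp6*, *spry1*, *spry2* and *fgf8* have hybrids below all *X. tropicalis* libraries, and the ligands other than *fgf8* overlap.

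Of the 6 paternal inhibitor features, 5 were above background, as were 38.5% of the 23919 *X. laevis* features tested. CPM of an *X. laevis* feature is scaled to the counts of both species. *spry2.S* had 68.2, 70.9 and 82.1 CPM in hybrids, against 0.0440, 0.178 and 0.0795 CPM of background in *X. tropicalis* libraries (log2 fold change 9.50 ± 0.47 SE, edgeR adjusted p = 3.78e-15). *spry2.L* had 36.8, 40.1 and 45.9 CPM in hybrids, against a background of 0.0446 to 0.0994 CPM. Replicate 42 was the highest hybrid for both copies.

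*spry1.S* had 29.4, 39.3 and 50.1 CPM in hybrids, against 0.0298 to 0.1004 CPM in *X. tropicalis* libraries. *spry1.L* had 27.5, 19.7 and 38.4 CPM in hybrids, above a background of 1.13, 1.14 and 1.23 CPM (log2 fold change 4.61 ± 0.42 SE, edgeR adjusted p = 1.00e-09). Both Sprouty genes were therefore read from 2 paternal copies each. Every one of these 4 features kept its call when any library was left out.

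*dusp6* differed between its paternal copies. *dusp6.S*, on chromosome 3S, had 22.2, 25.1 and 24.5 CPM in hybrids, against 0, 0.0892 and 0.00994 CPM in *X. tropicalis* libraries (log2 fold change 9.47 ± 0.74 SE, edgeR adjusted p = 4.58e-11). *dusp6.L*, on chromosome 3L, had 0.179, 0.1196 and 1.33 CPM in hybrids, against 0, 0.0669 and 0.0199 CPM in *X. tropicalis* libraries, and did not pass (adjusted p = 0.195). Summed over the hybrid libraries, *dusp6.S* took 5747 counts and *dusp6.L* 117.

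Paternal ligand copies were detected above background for 5 of the 7 ligands, on 6 of 12 ligand features. Over all 23919 *X. laevis* features tested, 38.5% were above background. The calls for *fgf2* and *fgf4* were lost when some libraries were left out, as given below. *fgf20.S* had 14.2, 22.5 and 12.1 CPM in hybrids, against at most 0.0446 CPM in *X. tropicalis* libraries (log2 fold change 8.77 ± 0.67 SE, edgeR adjusted p = 2.74e-11). *fgf20.L* had 5.81, 10.7 and 8.41 CPM in hybrids, against 0, 0 and 0.0398 CPM in *X. tropicalis* libraries. Replicate 41 was the highest hybrid for both copies of *fgf20*.

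*fgf3.S* had 15.7, 9.48 and 9.49 CPM in hybrids, against 0.0223 to 0.0440 CPM in *X. tropicalis* libraries (log2 fold change 8.29 ± 0.74 SE, edgeR adjusted p = 6.10e-10). Its homeologue *fgf3.L* had 0, 12 and 0 counts in hybrids and none in *X. tropicalis*, and did not pass (adjusted p = 0.305). *fgf8.S* had 2.72, 3.16 and 6.23 CPM in hybrids, against 0.0220, 0 and 0.0199 CPM in *X. tropicalis* libraries (log2 fold change 8.02 ± 1.25 SE, edgeR adjusted p = 7.67e-06). These ligand features kept their call when any library was left out.

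The calls of *fgf2.L* and *fgf4.L* rested on few reads and on single libraries. *fgf2.L* had 35, 119 and 3 counts in hybrids and none in *X. tropicalis*, at least 61.4-fold higher against a floor of 3 counts over the 3 *X. tropicalis* libraries (edgeR adjusted p = 0.0249). Without hybrid replicate 41 its adjusted p was 0.270, and it was 0.0588 to 0.0620 without *X. tropicalis* replicate 37, 38 or 39. *fgf4.L* had 0, 24 and 102 counts in hybrids and none in *X. tropicalis*, at least 49.3-fold higher with groups that overlapped at 0 (edgeR adjusted p = 0.0343). Its adjusted p was 0.342 without hybrid replicate 42, or 0.0734 to 0.0831 without an *X. tropicalis* replicate. *fgf4.S* had 0, 68 and 0 counts in hybrids and did not pass (edgeR adjusted p = 0.153).

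Together 11 of the 18 *X. laevis* features were above background and 0 below with edgeR, and DESeq2 or an unadjusted p gave the same counts. Over all *X. laevis* features tested, 38.5% were above background and 0.309% below, 38.8% in all. Groups did not overlap for 11 members with hybrids higher and 1 (*fgf16.L*) with hybrids lower, against 44.5% and 1.19% of all features tested. The filter requires 10 counts in hybrids, so this count is a description of the members and not evidence for a difference. By role, 5 of 6 inhibitor features and 6 of 12 ligand features were above background. With features of no background count set to their lower bound, the median log2 fold change was 5.78 for the members and 4.04 for all features; as fitted the medians were 8.16 and 5.73.

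**Figure D2:**
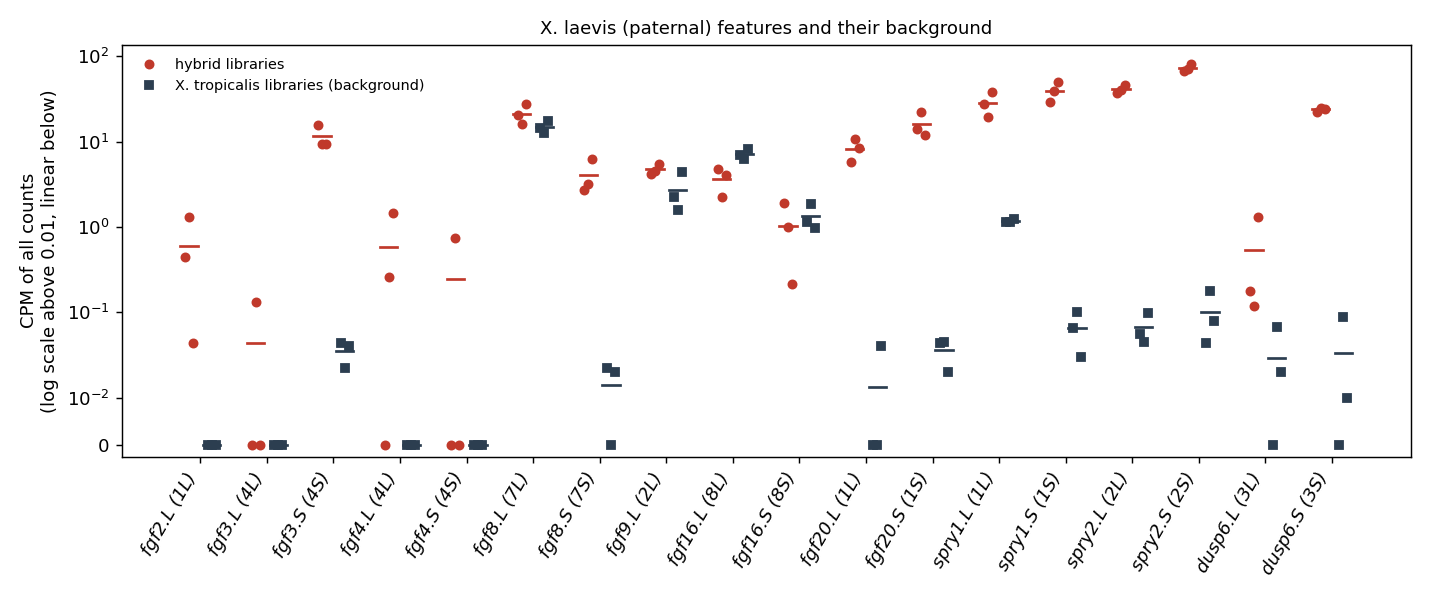
Levels of the 18 *X. laevis* features in each library, in CPM of all counts (log scale above 0.01, linear below), with the chromosome in brackets. Red circles are hybrid libraries, dark squares the background in *X. tropicalis* libraries, and short lines group means; *fgf8.L*, *fgf9.L*, *fgf16.L* and *fgf16.S* have a background of the order of the hybrid level.

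For 3 ligands the *X. laevis* features took many reads of *X. tropicalis* embryos, and their paternal level is uncertain. *fgf8.L* had 20.5, 15.98 and 27.4 CPM in hybrids, against 14.3, 12.8 and 17.6 CPM in *X. tropicalis* libraries (log2 fold change 0.51 ± 0.34 SE, edgeR adjusted p = 0.226). Per 100 counts on the *X. tropicalis* feature *fgf8*, the feature *fgf8.L* took 176, 109.7 and 217 counts in hybrids and 68.1, 56.9 and 78.6 in *X. tropicalis*. The hybrid ratios all lay above the *X. tropicalis* ratios, and a background scaled to *fgf8* left 12.5, 6.03 and 18.8 CPM for *fgf8.L* in hybrids. Their mean was 12.5 CPM, against 6.39 CPM when the mean level of *X. tropicalis* libraries was subtracted instead. These values have no test here.

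*fgf9.L* had 4.24, 4.56 and 5.48 CPM in hybrids, against 2.22, 1.56 and 4.41 CPM in *X. tropicalis* libraries. After the same scaling, 0.406 to 1.27 CPM were left in hybrids, with a mean of 0.743 CPM, against 2.03 CPM by plain subtraction. *fgf16.L* had 4.76, 2.22 and 4.12 CPM in hybrids, against 7.08, 6.25 and 8.19 CPM in *X. tropicalis* libraries, the reverse order, with groups that did not overlap (log2 fold change -0.95 ± 0.54 SE, edgeR adjusted p = 0.165).

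*X. tropicalis* embryos gave more counts, not adjusted for feature length, to *fgf16.L* than to the *X. tropicalis* feature *fgf16*, with 643, 560 and 824 counts on *fgf16.L* against 174, 56 and 106 on *fgf16*. *fgf16.S* had 1.89, 0.989 and 0.216 CPM in hybrids, against 1.16, 1.87 and 0.974 CPM in *X. tropicalis* libraries. For *fgf16* a paternal level could not be separated from background.

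The share of a gene's counts on *X. laevis* features differed widely among the members in hybrids. *fgf3* drew 83.0% ± 4.83 of its hybrid counts from them and *fgf20* 71.0% ± 8.55 (SD, n = 3), against 1.64% ± 0.233 and 0.614% ± 0.316 in *X. tropicalis* libraries. The inhibitors had lower shares, with 43.4% ± 8.51 for *spry1*, 45.5% ± 4.62 for *spry2* and 51.1% ± 11.3 for *dusp6* (SD, n = 3). In *X. tropicalis* libraries their shares were 0.953%, 0.0809% and 0.0746%. *fgf2*, found with an L feature and no S feature, had the lowest share before any background was subtracted. It was 8.21% ± 10.2 (SD, n = 3), against 0% in *X. tropicalis* libraries, and 2.41% without hybrid replicate 41.

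The shares moved with the library. Replicate 42 had the highest hybrid share for *spry1* (53.0%) and *spry2* (50.7%) and the lowest for *dusp6* (38.3%) and *fgf20* (61.9%). Exact binomial 95% intervals of these 4 single values were 52.1 to 53.9%, 49.9 to 51.4%, 36.9 to 39.7% and 59.8 to 63.9%, and cover counting error only. The share for *fgf8* was 65.4% ± 8.02 in hybrids and 40.3% ± 3.89 in *X. tropicalis* libraries (SD, n = 3), and for *fgf9* 40.8% ± 3.60 and 36.7% ± 20.0, and the 2 groups overlapped for *fgf9*. Shares depend on the length of each feature, which the sources used here do not give. For genes with both L and S features, they set both against a single *X. tropicalis* feature, so they are not shares per copy.

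**Figure D3:**
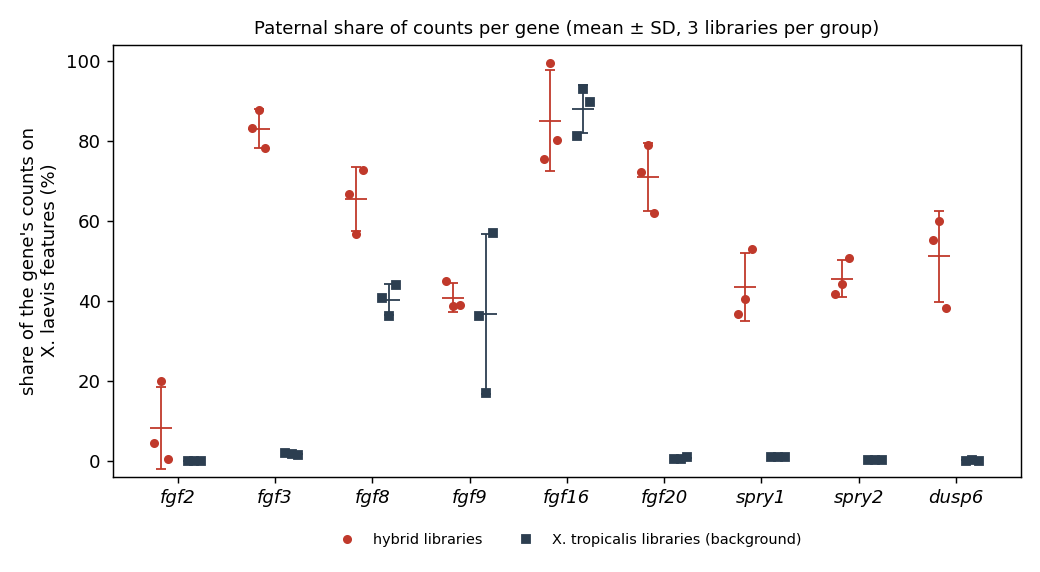
Share of each gene's counts on *X. laevis* features, in percent, for 9 genes (*fgf4* had too few counts). Red circles are hybrid libraries, dark squares the background in *X. tropicalis* libraries, and bars the mean ± SD of 3 libraries; *fgf3* and *fgf20* lie highest among genes with a background under 2%, and the inhibitors lie between 36.7% and 59.9%.

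Summed over all copies under human gene names, counts of *FGF3* and *FGF20* rose in hybrids and those of *DUSP6* fell. In hybrids the sums add expressed paternal L and S copies to the *X. tropicalis* copy. Copy number, feature length and a change in expression cannot be told apart in these sums. Of the 10 names, 2 were called higher and 1 lower, and DESeq2 gave the same counts, against 5.06% higher and 2.86% lower, 7.92% in all, over the 12680 names tested. *FGF20* had 29.5, 44.3 and 34.4 CPM in hybrids, against 13.2, 8.97 and 6.54 CPM in *X. tropicalis* embryos (log2 fold change 1.92 ± 0.29 SE, edgeR adjusted p = 0.00239). *FGF3* had 20.0, 11.5 and 12.6 CPM in hybrids, against 2.48, 1.42 and 2.995 CPM in *X. tropicalis* embryos (log2 fold change 2.68 ± 0.42 SE, edgeR adjusted p = 0.00293). The *X. tropicalis* features *fgf3* and *fgf20* overlapped between groups, and the paternal features made up most counts of both genes in hybrids.

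*DUSP6* had 43.2, 44.3 and 70.1 CPM in hybrids, against 84.3, 85.8 and 97.7 CPM in *X. tropicalis* with its paternal counts included (log2 fold change -0.77 ± 0.20 SE, edgeR adjusted p = 0.0428). It kept its call in 1 of the 6 fits that leave out a library, that without hybrid replicate 42, and adjusted p in the other 5 was 0.0670 to 0.180. The *X. tropicalis* feature alone thus gave a larger fall than the sum.

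For the Sprouty genes the sums lay above those of *X. tropicalis* embryos, the opposite order to their *X. tropicalis* features, and neither passed. *SPRY1* had 165, 153 and 173 CPM in hybrids, against 137, 132 and 141 CPM in *X. tropicalis* embryos (log2 fold change 0.26 ± 0.11 SE, edgeR adjusted p = 0.205). *SPRY2* had 268, 264 and 263 CPM in hybrids, against 193, 206 and 254 CPM in *X. tropicalis* embryos (log2 fold change 0.28 ± 0.12 SE, edgeR adjusted p = 0.208). The groups overlapped for neither, with hybrids higher. Of the 10 names, 6 lay higher in hybrids without overlap and 1 lower, against 16.8% and 13% of all names tested. *FGF9* was among the 6, with a log2 fold change of 0.61 ± 0.32 SE (edgeR adjusted p = 0.300). *FGF4* was another, on at most 68 counts in any library. *FGF2* overlapped, with a log2 fold change of 0.58 ± 0.38 SE (edgeR adjusted p = 0.406). *FGF8* had 37.1, 35.4 and 48.1 CPM in hybrids, against 37.3, 37.2 and 42.2 CPM in *X. tropicalis*, with a log2 fold change of 0.05 ± 0.18 SE (edgeR adjusted p = 0.917). *FGF16* had 9.38, 3.39 and 5.62 CPM in hybrids, against 10.7, 9.21 and 10.8 CPM in *X. tropicalis*. Its groups overlapped, with a log2 fold change of -0.74 ± 0.41 SE (edgeR adjusted p = 0.332).

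The split of hybrid counts between L and S features differed among the 8 genes that have both, with S ahead for 5 and L ahead for 3. *fgf3.S*, on 4S, took 2759 counts over the hybrid libraries and *fgf3.L*, on 4L, took 12. The S share of *X. laevis* counts was 99.5% ± 0.784 for *fgf3* and 97.9% ± 2.60 for *dusp6*, and 64.3% ± 0.570 for *spry2*, 58.3% ± 7.63 for *spry1* and 65.9% ± 6.25 for *fgf20* (SD, n = 3 hybrid libraries), whose L features lie on 1L and 2L. L was ahead for *fgf8*, on 7L and 7S, with an S share of 15.6% ± 3.49, and for *fgf16*, on 8L and 8S, with 21.4% ± 14.3 (SD, n = 3), both with a high background on the L feature. The S share of *fgf8* is thus lowered by background reads on *fgf8.L*. With a background scaled to *fgf8* subtracted, the hybrid means were 12.5 CPM for *fgf8.L* and 4.03 CPM for *fgf8.S*. The S feature of *fgf16* was also at background, with 254 counts in hybrids and 371 in *X. tropicalis* libraries. Its split therefore does not compare paternal L and S levels. *fgf4* had 126 counts on *fgf4.L* (4L) and 68 on *fgf4.S* (4S), from few reads in single libraries. No order by chromosome was tested. Of the 3 members on 3L and 4L, 1 was above background, against 20.7% of all features tested there.

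Among 98 other genes of the pathway, 87 had features, and 2 receptor genes moved in opposite directions on *X. tropicalis* features. *fgfr4*, for an FGF receptor, fell to 174 CPM ± 14.2 in hybrids, against 404 CPM ± 42.5 in *X. tropicalis* embryos (SD, n = 3; log2 fold change -1.21 ± 0.13 SE, edgeR adjusted p = 3.90e-04). *fgfr2*, a related receptor gene, rose to 177 CPM ± 34.8 in hybrids, against 65.8 CPM ± 2.70 in *X. tropicalis* embryos (log2 fold change 1.43 ± 0.16 SE, edgeR adjusted p = 6.48e-04). *flrt3*, whose membrane protein binds FGF receptors and promotes their signalling in *Xenopus*, fell to 121 CPM ± 55.0 in hybrids, against 342 CPM ± 69.7 in *X. tropicalis* embryos (log2 fold change -1.49 ± 0.28 SE, edgeR adjusted p = 0.0135). In hybrids its paternal copies had 176 CPM (*flrt3.L*) and 84.9 CPM (*flrt3.S*, named after its values were seen), scaled to the counts of both species. No sum over copies is given here for *fgfr4*, *fgfr2* or *flrt3*, so their total levels in hybrids cannot be read from these changes.

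The mesoderm gene *t*, a target of FGF signalling, fell on its *X. tropicalis* feature to 81.4 CPM ± 13.0 in hybrids, against 164 CPM ± 10.8 in *X. tropicalis* embryos (SD, n = 3, log2 fold change -1.01 ± 0.15 SE, edgeR adjusted p = 0.00320). Its paternal copies, named after their values were seen, had 67.4 CPM ± 1.04 (*t.S*) and 3.51 CPM ± 1.26 (*t.L*) in hybrids. Their backgrounds were 0.173 and 0 CPM. A sum over the copies of *t* is not given here, so its total level in hybrids cannot be read from this fall. *dusp5*, a nuclear ERK phosphatase gene, fell by 1.08 on the log2 scale (58.3 CPM ± 17.4 in hybrids, against 124 CPM ± 20.8 in *X. tropicalis*, edgeR adjusted p = 0.0273). *hras*, a Ras gene, fell by 1.69 (8.26 CPM ± 3.13 in hybrids, against 26.6 CPM ± 7.62 in *X. tropicalis*, edgeR adjusted p = 0.0237). Both values are for the *X. tropicalis* features alone. The paternal copy *dusp5.L* had 123 CPM in hybrids, scaled to the counts of both species. No sum over the copies of *dusp5* is given here, so its total level in hybrids cannot be read from its fall. The remaining called features, the proteoglycan gene *sdc4* (-0.61) and *fgfbp3*, are named after their values were seen. In *X. tropicalis* libraries, an *X. laevis* model on 9_10L under the human name *SDC4* took 24133, 21891 and 25684 counts. The *X. tropicalis* feature *sdc4* took 12467, 12492 and 17265 there, so the level of the gene cannot be read from that feature alone. *fgfbp3*, for an FGF-binding protein, had 340, 289 and 34 counts in hybrids and none in *X. tropicalis*, at least 294-fold higher against a floor of 3 counts over the group. Whether these counts include *X. laevis* reads that fell on the *X. tropicalis* feature was not tested.

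Of the 74 pathway features of *X. tropicalis* tested, 2 were called higher and 6 lower, 2.7% and 8.11% against 0.76% and 2.99% over all features. By role these were 2 higher and 3 lower of 17 receptor and coreceptor features, 0 and 1 of 22 transducers, 0 and 1 of 12 other inhibitors, 0 and 1 of 19 targets and 0 and 0 of 4 other ligands. The median log2 fold change was -0.17 over the 74 features, -0.59 over the targets and -0.21 over the other inhibitors, against -0.005 over all features. For the other ligands, 0 reached an unadjusted p under 0.05 and DESeq2 called 0.

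*fgfr4*, *fgfr2* and *t* kept their call in all 6 fits that leave out a library, while *dusp5* lost it without *X. tropicalis* replicate 38 or 39, *flrt3* without hybrid replicate 41 or *X. tropicalis* replicate 37 or 39 (adjusted p at most 0.0735), and *fgfbp3* without hybrid replicate 40 or 41. *hras* kept it in 2 of 6 fits and *sdc4* in 1 of 6, with adjusted p up to 0.110 and 0.198. The lower features numbered 3 without hybrid replicate 41, 3 without *X. tropicalis* replicate 37 and 2 without *X. tropicalis* replicate 39, and the higher ones 1 without hybrid replicate 40 or 41. Beside these falls, the summed early embryo genes were lower in hybrids as given above, and their part was not tested.

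**Figure D4:**
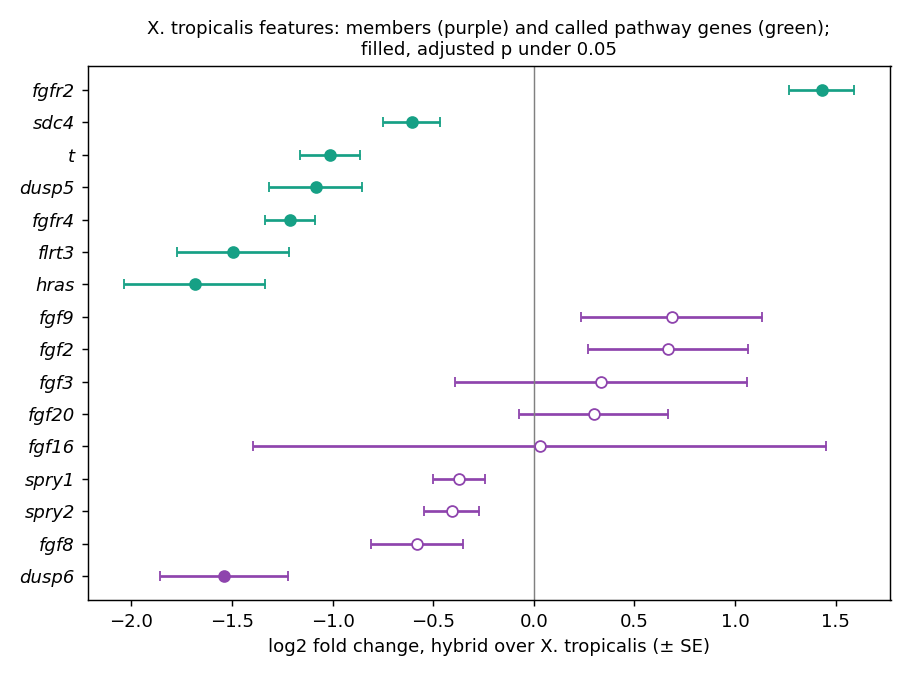
Log2 fold change of *X. tropicalis* features, hybrid over *X. tropicalis*, with standard errors. Purple points are members (*fgf4* left out, too few counts) and green points the called pathway features other than *fgfbp3*; filled points have an adjusted p under 0.05. *dusp6* is the filled member at -1.54, and *fgfr2* is the one point above 1 on the higher side.

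Paternal copies of the pathway were counted in the same way. Of the 142 pathway features of *X. laevis* tested, 67 were above background and 0 below with edgeR. Over all 23919 *X. laevis* features tested, 38.5% were above and 0.309% below. DESeq2 gave 74 and 1 for the pathway, against 10780 and 99 over all features. With no adjustment of p, edgeR gave 76 and 1 for the pathway, against 11063 and 125 over all features. On 3L and 4L 3 of 17 were above background, on the other L chromosomes 26 of 50, and on S chromosomes 36 of 63, against 20.7%, 39.9% and 42.4% of all features tested there. The pathway counts stood in the same order as those of all features, and a difference by position was not tested. The receptor feature *fgfr4.S*, on 3S, had 71.1 CPM ± 7.13 in hybrids, against 0.198 CPM ± 0.0540 in *X. tropicalis* libraries (SD, n = 3; edgeR adjusted p = 1.30e-15). Its homeologue *fgfr4.L*, on 3L, named after its values were seen, had 0, 18 and 0 counts in hybrids.

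*fgfr2.L* had 42.6 CPM ± 7.57 and *flrt3.L* 176 CPM ± 39.4 in hybrids, against 0.0572 and 0.663 CPM in *X. tropicalis* libraries (n = 3 each). Among the other inhibitors *dusp5.L* had 123 CPM ± 7.69 in hybrids, *dusp1.S* 64.7 CPM ± 21.8 and *spred1.L* 17.3 CPM ± 5.27, with backgrounds of 0.123 to 0.246 CPM (SD, n = 3). Among transducers *frs2.S*, for an adaptor that docks to FGF receptors, had 17.7 CPM ± 3.69, *cbl.L* 12.7 CPM ± 1.37 and *map2k1.S* 8.32 CPM ± 0.244 in hybrids, with backgrounds of 0.0250 to 0.0595 CPM. Among targets *ets2.S* had 209 CPM ± 18.1 in hybrids, against 0.595 CPM in *X. tropicalis* libraries.

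The other leading targets were 2 models under the human name *TBX6*, with 406 CPM ± 63.4 on chromosome 1S and 140.02 CPM ± 10.4 on 1L in hybrids. The *X. tropicalis* feature under that name is *vegt*, so these models need not be *tbx6*. Among the other ligands the leading features were a 4S model under the human name *FGF19*, with 79, 138 and 85 counts in hybrids, *fgf10.L* with 0, 26 and 200, and *fgf22.L*, detected in 2 of 3 hybrid libraries. None of them had a count in *X. tropicalis* libraries.

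Over the 6 libraries, the *X. tropicalis* features whose log2(CPM + 1) followed *spry2* most closely among 7004 compared were *snx3* (Pearson r = 0.998), *mief2* (0.983) and *ppp1r9a* (0.980). Those closest to *spry1* were *frzb* (0.997), a secreted Wnt antagonist gene, *pcdh8.2* (0.995), a protocadherin gene, and *ssr1* (0.994). *frzb* had 122 CPM ± 35.3 in hybrids, against 224 CPM ± 16.3 in *X. tropicalis*, and *pcdh8.2* had 132 CPM ± 57.8 in hybrids, against 441 CPM ± 80.0 in *X. tropicalis* (SD, n = 3). The libraries form 2 groups, and these correlations are a description of that pattern.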

How the data were processed

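The authors deposited raw counts per feature, and counts summed to human gene names, for polyA RNA of whole embryos. BWA 0.7.10 is a tool listed in the submitters' processing notes. The sources used here do not give the counter, gene models, builds, filters or use of strand, so reads shared by L, S and *X. tropicalis* copies, or by overlapping or antisense genes, may lie on any of them. Feature sums equalled 14145 of 14146 human names. *fgf4.L* carries the human name *FGF6* and is not in the *FGF4* sum.

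Counts were tested with edgeR 4.0.16 (R 4.3.3; TMM, filterByExpr, Benjamini-Hochberg at 0.05 over all features) for *X. tropicalis* features and human names. *X. laevis* features with at least 10 hybrid counts were tested against *X. tropicalis* libraries, with library sizes over all features and TMM factors of *X. tropicalis* features. Each SE came from the log2 fold change and the square root of the F statistic, as their ratio. A floor of 3 counts served groups at 0 (0.0298 to 0.0335 CPM per *X. tropicalis* library). Scripts were tested on simulated data with a smaller spread between libraries than these data, so error rates here were not measured. DESeq2 1.42.0, other scalings and filters, and leaving out libraries were alternatives. Figures used matplotlib 3.10.9.

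Groups came from the labels. Replicate pairs differed beyond counting noise (67.5 to 107 units of chi-square for each degree of freedom). The series calls the libraries biological replicates, and p-values measure the spread between them. The labels used here name no clutch or parents, so a difference between clutches cannot be told apart from one between crosses. Members, lists, tests and naming rules were chosen with earlier results of these data known. Named pathway genes are the 3 with the smallest adjusted p under 0.05 per role and species.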

Additional observations from a re-analysis of the deposited data

How the results depend on the processing

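No paired analysis was run, because the groups share no replicate number and the labels used here do not say whether libraries are paired. Counts of members called on *X. laevis* features stayed within 1.5 times the reported 11 under every alternative run. The *X. tropicalis* features gave 0 to 1 lower members when a library was left out, and 2 higher (*fgf3* and *fgf20*) when the copies of both species were summed by symbol. The human-name sums gave 0 to 1 lower members when a library was left out. With the background subtracted, the paternal share was 53.9% for *fgf8* and 10.3% for *fgf9*; for *fgf16* the net count fell below 0 in 2 hybrid libraries, so no share is given. Library sizes over all features moved the median of *X. tropicalis* features to -0.15 and *dusp6* to -1.71 (log2). All calls on *X. tropicalis* features numbered 528, and 1193 with DESeq2, 866 without a low-count filter, 3752 with copies summed and 330 to 647 with a library left out. For human names they numbered 1004, 1734 with DESeq2 and 506 to 1041 with a library left out, and for *X. laevis* features 9284, and 5767 with a filter of 1 CPM in 3 libraries. Why these counts moved was not tested. At this depth, *fgf4* and the L copies of *fgf2*, *fgf3* and *fgf4* rest on at most 157 counts over the hybrids.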

Other observations

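Another Sprouty gene, named here after its values were seen, was counted mostly on a paternal feature in both groups. *spry4* had 60, 40 and 71 counts in hybrids and 189, 114 and 776 in *X. tropicalis*, while *spry4.S* had 1756, 1074 and 526 counts in hybrids and 1703, 1161 and 1354 in *X. tropicalis*, which lacks that genome. Its species split cannot be read from these counts. The transcription factor gene *etv1*, in the family of FGF-responsive ETS factors and also named after its values were seen, had 492 CPM ± 21.6 in hybrids, against 493 CPM ± 23.1 in *X. tropicalis* embryos (SD, n = 3; log2 fold change -0.003 ± 0.10 SE, edgeR adjusted p = 0.994). The FGF receptor gene *fgfr1*, likewise named after its values were seen, had 730.4 CPM ± 93.6 in hybrids, against 599 CPM ± 7.09 in *X. tropicalis* embryos (log2 fold change 0.29 ± 0.12 SE, edgeR adjusted p = 0.225).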
